A study of Mus musculus with 8 samples.

Results

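Connexins are the proteins that build gap junctions, and 6 of their genes are described here: Gja1, Gja4, Gja5, Gjc1, Gjb2 and Gjb6. They were chosen by name, as a list. All 6 were measured, among 18193 genes in all that had a probe set naming them alone. The study hybridised 8 RNA samples to oligonucleotide arrays, all taken from small intestine, with BALB/c mice of 6 to 9 days as the source. The groups were ICC-DMP cells (3 arrays), ICC-MY cells (3 arrays) and tunica muscularis (2 arrays), the muscle coat of the gut wall from which such cells come. No group carried a transgene, deletion or treatment in the labels. The abbreviation ICC is used for interstitial cells of Cajal, with MY for those around the myenteric plexus and DMP for those of the deep muscular plexus; the labels print only the short forms. The titles call the samples biological replicates without saying whether each came from separate animals, so the p-values measure only the spread between these samples.

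A gap junction is a channel that joins the interior of a cell to that of its neighbour. A ring of connexin proteins in one membrane forms a hemichannel, which docks with a hemichannel of the next cell and lets ions and small molecules pass. In the gut wall, interstitial cells of Cajal generate the electrical slow wave and relay signals from enteric nerves, and gap junctions are a route by which current can spread among them and to smooth muscle. Gja1 encodes Cx43, the connexin found most widely in the body, and Gjc1 encodes Cx45, known from cardiac conduction tissue and smooth muscle. Gja4 and Gja5 encode Cx37 and Cx40, best known from blood vessel walls, and Gjb2 and Gjb6 encode Cx26 and Cx30, best known from the inner ear and epithelia.

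The promoters of Gja1 and Gja4 are shown because these members held, respectively, a probe set that separated ICC-MY from the other groups and the values nearest to the threshold against tissue. Each line gives the 250 bases before the RefSeq transcription start (assembly GRCm38.p6), read 5′ to 3′ on the strand of the gene. Gja1 lies on the plus strand at chr10:56377050-56377299, and Gja4 on the minus strand at chr4:127314040-127314289. Capitals mark an AP-1 motif, searched as TGANTCA, in Gja1 and a GC box, searched as GGGCGG, in Gja4.
Gja1: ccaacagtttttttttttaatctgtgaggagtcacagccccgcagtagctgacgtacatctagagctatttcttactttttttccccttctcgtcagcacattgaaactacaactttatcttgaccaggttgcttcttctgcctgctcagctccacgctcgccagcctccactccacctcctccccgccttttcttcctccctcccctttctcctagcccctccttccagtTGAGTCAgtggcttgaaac
Gja4: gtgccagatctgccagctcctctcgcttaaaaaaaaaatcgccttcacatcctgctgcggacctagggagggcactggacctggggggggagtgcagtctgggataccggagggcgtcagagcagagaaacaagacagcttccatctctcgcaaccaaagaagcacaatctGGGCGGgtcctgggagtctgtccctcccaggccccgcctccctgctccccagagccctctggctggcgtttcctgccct

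Promoter entries were found for 5 of the 6 members, all but Gjc1. The AP-1 motif stood 19 bases before the start in Gja1, in 1 copy, and in none of the other 4 promoters. It occurred in 6.75% of 32851 promoters of the same length. GC boxes, searched on both strands, numbered 1 in Gja4, 1 in Gja5 and 2 in Gjb2, with 0 in Gja1 and Gjb6, against 32.7% of all promoters holding at least 1. The TATA box letters TATAAA were in 0 of the 5, against 12.4% of all promoters, and the motifs searched did not overlap. The GC content was 50% in Gja1, 61.2% in Gja4, 56.4% in Gja5, 69.2% in Gjb2 and 56.8% in Gjb6. These are matches of letters and say nothing of binding.

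The values are log2 expression values, so a difference of 1 is a doubling of signal, and the median over all probe sets and arrays was 4.23. Probe sets bind with different strength, so values are compared between groups for a probe set and not between genes. In tissue, fewer cells of a type and less RNA per cell cannot be told apart. Against tissue, 4 of 7 ICC markers passed as higher in ICC-DMP and 6 of 7 in ICC-MY, Kit by 3.27 (SE 0.50, limma adjusted p = 0.00366) and 3.92 (SE 0.50, adjusted p = 0.00112). Smooth muscle markers averaged 9.76 to 10.02 in ICC-DMP, 7.31 to 8.09 in ICC-MY and 10.37 to 11.25 in tissue, and the part of muscle cells in the ICC-DMP values was not tested. ICC-MY replicate 1 and tissue replicate 1 stood apart: the SD over their probe sets was small (1.98 and 2.06, against 2.22 to 2.31) and their 99th percentile was low (10.50 and 10.71, against 11.33 to 11.79). They are called the narrow-range arrays. The comparisons of ICC-DMP and of ICC-MY with tissue share the tissue arrays and are not independent of each other.

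By the limma fit with Benjamini-Hochberg adjustment over all genes, 0 of the 6 connexin genes passed an adjusted p of 0.05 in ICC-DMP against tissue, where 11.0% of all genes passed. The count was also 0 of 6 in ICC-MY against tissue, against 13.8% of all genes, and 0 of 6 in ICC-DMP against ICC-MY, against 8.67%. At an unadjusted p under 0.05 there were 2 (Gja4 and Gjc1), 1 (Gja4) and 1 (Gjb2), where 21.7%, 24.6% and 18.5% of all genes reached it. The median difference of the 6 was 0.05, 0.10 and −0.06, beside −0.04, −0.02 and −0.02 over all genes. With the replicate number as a block, the counts were 2, 1 and 1: Gja4 and Gjc1 in ICC-DMP against tissue, Gja4 in ICC-MY against tissue and Gjc1 between the ICC groups. The block raised the number over all 18193 genes as well, from 2009, 2516 and 1577 to 2853, 3537 and 2617.

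**Figure D1:**
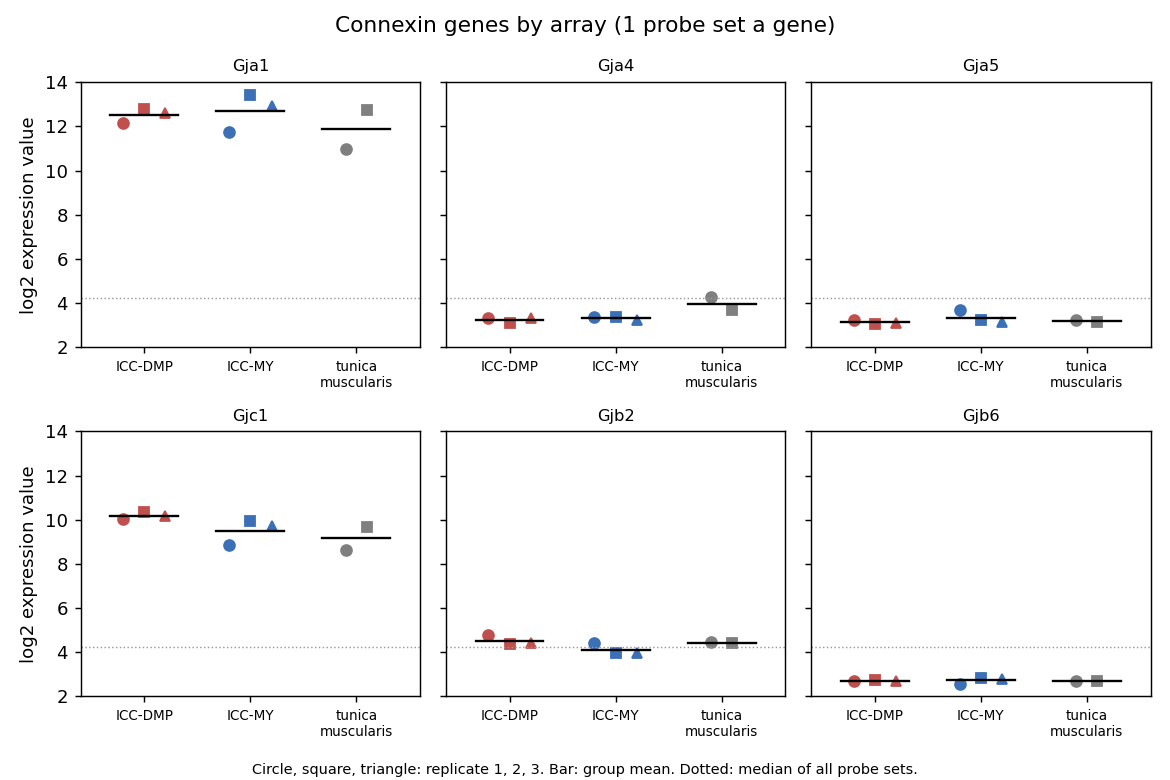
The log2 expression value of the main probe set of each of the 6 connexin genes (y axis) in each of the 8 arrays by group (x axis), with symbols for the replicate number, a bar at each group mean and a dotted line at the median of all probe sets. Gja1 ranged from 10.97 to 13.42 and Gjc1 from 8.64 to 10.35, while Gja4, Gja5, Gjb2 and Gjb6 stayed between 2.58 and 4.78.

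Gja1, Cx43, gave a high signal in every array, and its main probe set separated none of the groups. The values were 12.16, 12.79 and 12.62 in ICC-DMP, 11.74, 13.42 and 12.92 in ICC-MY, and 10.97 and 12.75 in tissue. All 3 groups overlapped, and the lowest values of ICC-MY and of tissue were both from the narrow-range arrays. The group means were 12.52 ± 0.33 (SD, n = 3) in ICC-DMP, 12.69 ± 0.86 (SD, n = 3) in ICC-MY and 11.86 ± 1.26 (SD, n = 2) in tissue. ICC-DMP differed from tissue by 0.66 (SE 0.59, 95% interval −0.70 to 2.02, limma adjusted p = 0.651). ICC-MY differed from tissue by 0.83 (SE 0.59, 95% interval −0.53 to 2.19, adjusted p = 0.486). Between the ICC groups the difference was −0.17 (SE 0.53, 95% interval −1.39 to 1.05, adjusted p = 0.933). This last interval holds more than a doubling in either direction. The sign of the difference between the ICC groups turned with single arrays: it was −0.65 without ICC-MY replicate 1, 0.19 without ICC-MY replicate 2 and 0.01 without ICC-DMP replicate 1, and the pair differences were 0.41, −0.62 and −0.30.

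The spread of Gja1 followed that of other genes of like signal. Tissue replicate 1 was 1.78 below replicate 2 for Gja1, and the 113 genes whose mean over the arrays lay within 0.5 of that of Gja1 were at the median 1.19 lower there. In ICC-MY replicate 1, Gja1 was 1.43 below the other 2 arrays of its group, and those genes were 1.31 below. After quantile normalization of the arrays, which gives all of them the same range, Gja1 was higher in ICC-MY than in tissue by 0.99 (adjusted p = 0.00700). Without tissue replicate 1 the difference of ICC-MY from tissue on the deposited values was −0.06, and that of ICC-DMP was −0.23. Without both narrow-range arrays, ICC-MY lay 0.415 above tissue, while ICC-DMP stayed 0.23 below it. The direction on this probe set thus depended on which arrays were kept. On every other Gja1 probe set, described below, ICC-MY stayed above tissue in all 13 alternatives, with a lowest difference of 0.27. Within replicate numbers, ICC-MY lay 0.77 above tissue for number 1 and 0.66 above for number 2. With the block the difference was 0.75 (adjusted p = 0.0856).

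Gja1 had 6 probe sets, and one of them, 1415801_at, set ICC-MY apart. Its values were 4.88, 4.87 and 4.38 in ICC-DMP, 6.56, 8.10 and 6.94 in ICC-MY, and 4.71 and 5.04 in tissue. Every ICC-MY array was above every other array, and ICC-DMP and tissue overlapped. In the fit of all 45037 probe sets, 1415801_at was higher in ICC-MY than in tissue by 2.33 (SE 0.41, adjusted p = 0.00729), where 12.6% of all probe sets passed. It was lower in ICC-DMP than in ICC-MY (difference −2.49, SE 0.37, adjusted p = 0.00453), where 7.41% of all probe sets passed. ICC-DMP against tissue gave −0.17 (adjusted p = 0.904), where 12.6% passed. The pair differences between ICC-DMP and ICC-MY were −1.68, −3.23 and −2.57 for replicate numbers 1, 2 and 3. This probe set was singled out after its values were seen.

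The other 5 Gja1 probe sets, the main one included, did not pass in any comparison on the deposited values, though their directions were alike. The mean of ICC-MY lay above that of ICC-DMP and above that of tissue in all 6. Probe set 1415800_at read 11.44, 11.69 and 11.40 in ICC-DMP, 11.47, 13.09 and 12.57 in ICC-MY, and 9.96 and 11.75 in tissue. Its lowest ICC-MY array lay within the ICC-DMP range, and the difference from tissue was 1.52 (adjusted p = 0.145). The probe set 1438973_x_at read 4.68, 5.22 and 5.14 in ICC-DMP, 5.39, 5.85 and 5.78 in ICC-MY, and 3.99 and 5.17 in tissue, with every ICC-MY array above all others. The remaining 2 ranged from 10.01 to 12.89 and from 10.37 to 12.36, with the lowest value in tissue replicate 1 and the highest in ICC-MY replicate 2. The probe sets share a target gene and are not replicates of each other.

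How many of the 6 Gja1 probe sets passed changed with the scale of the arrays. After quantile normalization 6 of 6 passed as higher in ICC-MY against tissue, 4 of 6 as lower in ICC-DMP against ICC-MY, and 0 of 6 in ICC-DMP against tissue. With the replicate block the counts were 5, 2 and 0, and without the 2 narrow-range arrays they were 2, 5 and 0. In the same order, genes passing with 1 probe set each rose from 2516, 1577 and 2009 of 18193 on the deposited values. They were 3911, 2557 and 3129 after quantile normalization, 3537, 2617 and 2853 with the block, and 3304, 2630 and 2834 without those arrays. The share of all probe sets that passed in these settings was not counted. Probe set 1415801_at passed in 13 of 13 alternatives in both comparisons with ICC-MY, with differences of 1.88 to 2.65 against tissue and −2.81 to −2.04 for ICC-DMP minus ICC-MY. The gap between the 3′ and 5′ actin control probe sets, a measure of RNA integrity, was 4.66 and 4.28 in the arrays of replicate number 3, of ICC-DMP and ICC-MY, and 2.53 to 3.53 in the others. It was high in 1 array of each ICC group, and its part in the Gja1 values was not tested.

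**Figure D2:**
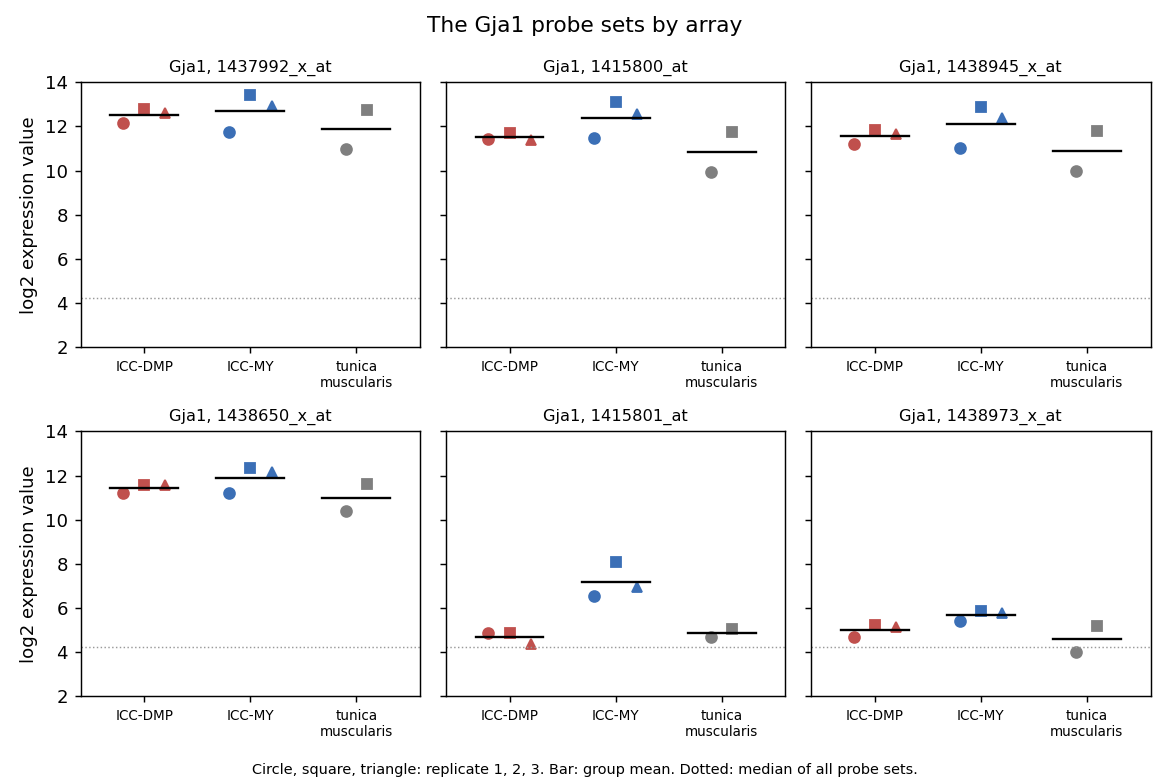
The log2 expression value (y axis) of each of the 6 Gja1 probe sets in the 8 arrays (x axis, by group), with symbols for the replicate number, a bar at each group mean and a dotted line at the median of all probe sets. Probe set 1415801_at lies between 6.56 and 8.10 in ICC-MY and between 4.38 and 5.04 elsewhere, while the other 5 probe sets have their lowest value in tissue replicate 1.

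Gja1 spanned 2.44 over the 8 arrays and was the only member to span 2 or more. The genes with the pattern most like it, by root mean square difference after centring each gene on its mean over the 8 arrays, were Sh3bgrl (0.140), Ccdc47 (0.156) and Mdh2 (0.180). All 3 had, like Gja1, their lowest group mean in tissue and their highest in ICC-MY. This follows largely from choosing them on the same 8 values and is no separate result. The pattern includes the low values of the narrow-range arrays, which other genes of like signal shared.

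Gjc1, Cx45, gave its highest values in ICC-DMP. Its main probe set read 10.04, 10.35 and 10.15 in ICC-DMP, 8.86, 9.93 and 9.71 in ICC-MY, and 8.64 and 9.68 in tissue. Every ICC-DMP array was above every other array, and ICC-MY and tissue overlapped. The means were 10.18 ± 0.16 (SD, n = 3), 9.502 ± 0.56 (SD, n = 3) and 9.16 ± 0.73 (SD, n = 2). ICC-DMP differed from tissue by 1.02 (SE 0.38, 95% interval 0.15 to 1.88, adjusted p = 0.147). It differed from ICC-MY by 0.67 (SE 0.34, 95% interval −0.10 to 1.45, adjusted p = 0.354). Neither difference passed, and ICC-MY against tissue gave 0.34 (95% interval −0.52 to 1.21, adjusted p = 0.692).

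For Gjc1 the call turned on how the arrays were aligned. With the replicate number as a block, ICC-DMP was higher than tissue by 0.97 (SE 0.22, adjusted p = 0.0181) and higher than ICC-MY by 0.67 (SE 0.19, adjusted p = 0.0464). The pair differences were 1.40 and 0.67 against tissue and 1.18, 0.41 and 0.43 against ICC-MY, all above 0. After quantile normalization they were 0.90 (adjusted p = 0.00340) and 0.50 (adjusted p = 0.0424). Without the 2 narrow-range arrays ICC-DMP against tissue was 0.50 (adjusted p = 0.139) and ICC-DMP against ICC-MY 0.36 (adjusted p = 0.195). Without ICC-MY replicate 1 alone the latter was also 0.36 (adjusted p = 0.641). Gjc1 was 1.04 lower in tissue replicate 1 than in replicate 2, and the 783 genes of like signal were at the median 0.81 lower.

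The second Gjc1 probe set, 1447787_x_at, ordered the ICC groups the other way. It read 8.18, 8.63 and 9.28 in ICC-DMP, 8.43, 9.79 and 9.51 in ICC-MY, and 7.73 and 8.77 in tissue, with overlap between all groups. Its difference between ICC-DMP and ICC-MY was −0.55, and it did not pass. The order of the ICC groups for Cx45 was thus not shared by its probe sets.

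Gja4, Cx37 of the vessel wall, came nearest to the threshold against tissue without passing it in the fit of 1 probe set a gene. The values were 3.31, 3.12 and 3.34 in ICC-DMP, 3.39, 3.35 and 3.24 in ICC-MY, and 4.27 and 3.68 in tissue. Both tissue arrays were above all 6 ICC arrays, and the ICC groups overlapped. The signal was low: only tissue replicate 1 exceeded the overall median of 4.23, and the ICC arrays lay at the 24.6th to 31.5th percentile. Gja4 was among the members that a filter on dim probe sets removed. ICC-DMP differed from tissue by −0.72 (SE 0.19, 95% interval −1.17 to −0.27, adjusted p = 0.0515). ICC-MY differed by −0.65 (SE 0.19, 95% interval −1.09 to −0.20, adjusted p = 0.0663), and the ICC groups differed by −0.07 (95% interval −0.47 to 0.32, adjusted p = 0.904). With the block both differences from tissue passed, at −0.72 (adjusted p = 0.0334) and −0.64 (adjusted p = 0.0436). They passed also after quantile normalization, at −0.72 (adjusted p = 0.0206) and −0.69 (adjusted p = 0.0214). Both passed too with arrays centred on their medians (0.0401 and 0.0443). In the fit of every probe set, ICC-DMP against tissue passed (adjusted p = 0.0404), where 12.6% of all probe sets passed, and ICC-MY did not (0.0615). Without tissue replicate 1, the higher of the tissue arrays, the differences shrank to −0.43 and −0.35, with only the other tissue array left.

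Markers of blood vessel endothelium went the way of Gja4 in part in ICC-DMP, and not as a list in ICC-MY. Their median difference from tissue was −0.65 in ICC-DMP and 0.04 in ICC-MY, beside −0.04 and −0.02 over all genes. Of 10 endothelial markers, ICC-DMP had 3 lower and 1 higher against tissue (Plvap, 3.36), and ICC-MY had 1 lower. The mean of the list ran from 4.06 to 4.26 in ICC-DMP, 4.28 to 5.13 in ICC-MY and 4.77 to 5.13 in tissue. Vwf, the clotting factor carrier of endothelium, was lower in ICC-DMP (difference −2.82, SE 0.27, adjusted p = 0.000329) and in ICC-MY (difference −2.53, SE 0.27, adjusted p = 0.000483). Pecam1 and Cdh5, which define endothelium, did not pass against tissue, with Pecam1 group means of 3.08, 3.39 and 3.30. The part of vessel cells in the Gja4 difference was not tested.

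Gja5, Cx40 of the vessel wall, read 3.22, 3.06 and 3.11 in ICC-DMP, 3.67, 3.22 and 3.15 in ICC-MY, and 3.25 and 3.13 in tissue. The groups overlapped. Its differences from tissue were −0.06 (95% interval −0.49 to 0.37, adjusted p = 0.932) and 0.15 (95% interval −0.27 to 0.58, adjusted p = 0.728). Between the ICC groups it differed by −0.21 (95% interval −0.60 to 0.17, adjusted p = 0.619). Each interval lies within a doubling either way, for a probe set whose values were all under the overall median.

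Gjb2, Cx26, read 4.78, 4.39 and 4.41 in ICC-DMP, 4.42, 3.94 and 3.98 in ICC-MY, and 4.45 and 4.40 in tissue. The highest ICC-MY array lay above the lowest ICC-DMP array, so the ICC groups overlapped. The difference of ICC-DMP from ICC-MY was 0.41 (SE 0.18, 95% interval 0.00 to 0.83, adjusted p = 0.267), and the pair differences were 0.36, 0.44 and 0.44. It did not pass under any alternative, where the adjusted p ran from 0.0505 to 0.646. Differences from tissue were 0.10 (95% interval −0.36 to 0.56, adjusted p = 0.873) in ICC-DMP and −0.31 (95% interval −0.77 to 0.15, adjusted p = 0.431) in ICC-MY. Epithelial markers, of which 4 of 10 were lower in each ICC group, averaged 4.08 to 4.24 in ICC-DMP, 3.98 to 4.33 in ICC-MY and 6.21 to 7.43 in tissue, and their part in the Gjb2 values was not tested.

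Gjb6, Cx30, lay near the bottom of the scale in every array, at the 6.19th to 14.9th percentile of the probe sets, so its small span of 0.25 over the 8 arrays says little about its stability. It read 2.68, 2.73 and 2.70 in ICC-DMP, 2.58, 2.83 and 2.80 in ICC-MY, and 2.71 and 2.70 in tissue. The differences were 0.00 (95% interval −0.32 to 0.33, adjusted p = 0.998), 0.04 (95% interval −0.29 to 0.36, adjusted p = 0.932) and −0.04 (95% interval −0.33 to 0.26, adjusted p = 0.940). The values of all groups overlapped.

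**Figure D3:**
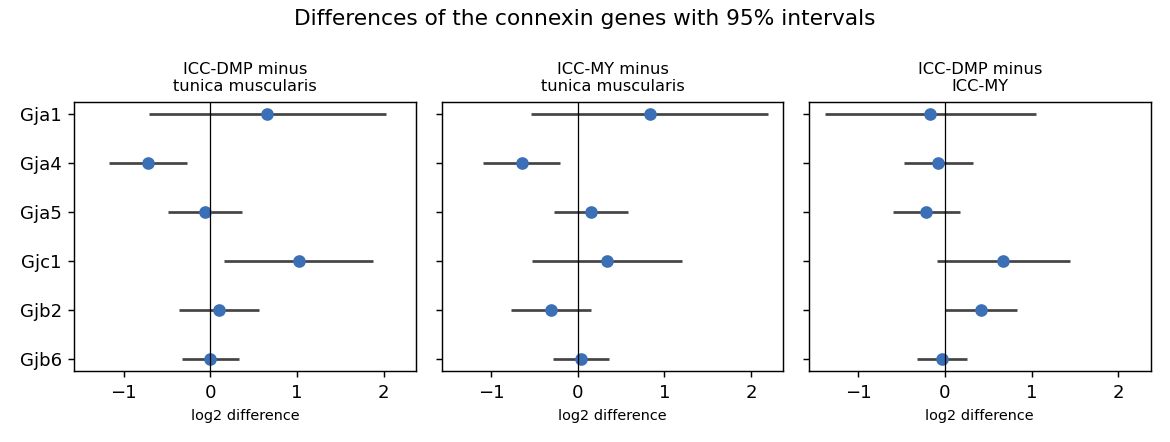
Differences between groups (x axis, log2) for the 6 connexin genes (y axis) in each of the 3 comparisons, given as the first group named minus the second, as points with 95% intervals from the limma fit, before any adjustment over genes. The intervals of Gja4 lie below 0 against tissue, at −1.17 to −0.27 and −1.09 to −0.20, and those of Gja1 are the widest, at −0.70 to 2.02 and −0.53 to 2.19 against tissue.

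Of 14 other connexin genes looked for, 8 had a probe set naming them alone. Of these, ICC-DMP had 1 higher (Gja3) and 1 lower (Gjb5) against tissue, ICC-MY had 1 lower (Gjb5) against tissue, and 1 was higher in ICC-DMP than in ICC-MY (Gja3). In these comparisons 11.0%, 13.8% and 8.67% of all genes passed. The median difference of the 8 was −0.09, −0.02 and −0.145 in ICC-DMP against tissue, ICC-MY against tissue and ICC-DMP against ICC-MY, beside −0.04, −0.02 and −0.02 over all genes. In the mouse genome Gja3 is next to Gjb2 and Gjb6 on chromosome 14, and Gjb5 is near Gja4 on chromosome 4 (RefSeq, assembly GRCm38.p6).

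Gja3, Cx46, a lens connexin, was higher in ICC-DMP than in the other groups on its main probe set. That probe set, 1439793_at, read 5.38, 4.76 and 4.87 in ICC-DMP, 2.73, 2.81 and 3.06 in ICC-MY, and 3.32 and 3.005 in tissue. Every ICC-DMP array was above every other array. The difference was 1.84 (SE 0.22, adjusted p = 0.00107) against tissue and 2.14 (SE 0.20, adjusted p = 0.000309) against ICC-MY. The second Gja3 probe set, 1422339_at, did not pass, with a difference of −0.22 (adjusted p = 0.571) between the ICC groups. The neighbouring members Gjb2 and Gjb6 did not pass.

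Gjb5, Cx31.1, an epidermal connexin, was lower in both ICC groups than in tissue. It read 3.95, 3.52 and 3.15 in ICC-DMP, 3.79, 3.83 and 3.59 in ICC-MY, and 7.32 and 6.02 in tissue. Both tissue arrays were far above all ICC arrays. The differences were −3.13 (SE 0.37, adjusted p = 0.000969) and −2.93 (SE 0.37, adjusted p = 0.00110). Markers of the mesothelium, the covering layer of the gut, were lower in both ICC groups for 6 of 6, with list means of 3.97 to 4.13, 3.74 to 3.89 and 8.73 to 8.99. Their part in the Gjb5 difference was not tested.

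Gjd2, Cx36, the connexin of electrical synapses between neurons, gave different answers by probe set. Probe set 1435297_at read 2.65, 2.88 and 2.72 in ICC-DMP, 2.77, 2.93 and 2.84 in ICC-MY, and 4.62 and 5.27 in tissue. It was lower than in tissue in ICC-DMP (difference −2.20, adjusted p = 0.000208) and in ICC-MY (difference −2.10, adjusted p = 0.000301). The main probe set, 1423019_at, gave −0.10 and 0.04 and did not pass. Enteric neuron markers, 7 of 8 lower in each ICC group, averaged 3.94 to 4.06, 3.95 to 3.99 and 8.21 to 8.50, and their part in the Gjd2 values was not tested. This probe set was named after its values were seen.

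Pannexins form channels in the membrane of a cell and are distant relatives of the connexins in fold. Of 3 measured, Panx1 passed in 2 comparisons. It read 6.43, 6.62 and 6.62 in ICC-DMP, 6.02, 5.71 and 6.11 in ICC-MY, and 7.12 and 7.10 in tissue. No groups overlapped, with tissue highest and ICC-MY lowest. ICC-MY was lower than tissue (difference −1.16, SE 0.17, adjusted p = 0.00200), and ICC-DMP was higher than ICC-MY by 0.61 (SE 0.15, adjusted p = 0.0391). The latter was 0.48 after quantile normalization and no longer passed (adjusted p = 0.106), nor did it pass when any ICC array was left out (adjusted p = 0.0501 to 0.159).

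**Figure D4:**
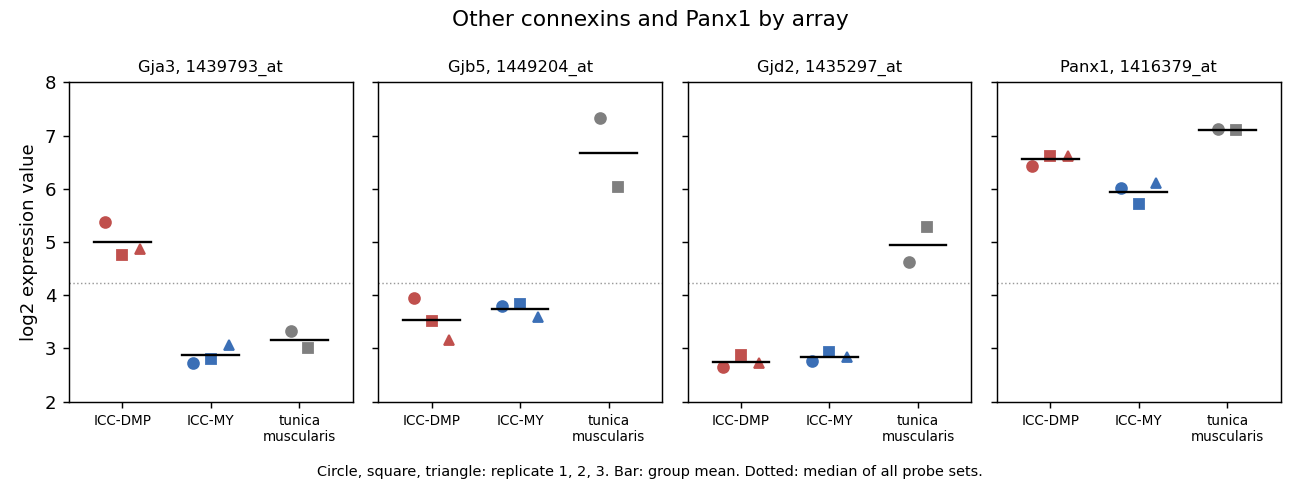
The log2 expression value (y axis) of 1 probe set each of Gja3, Gjb5, Gjd2 and Panx1 in the 8 arrays (x axis, by group), with symbols for the replicate number, a bar at each group mean and a dotted line at the median of all probe sets. Gja3 lies between 4.76 and 5.38 in ICC-DMP and between 2.73 and 3.32 elsewhere, and the Gjb5 and Gjd2 probe sets are above 4.23 in both tissue arrays and below it in all ICC arrays.

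Genes that place connexins in the membrane or bind them were counted beside the 11.0%, 13.8% and 8.67% of all genes that passed in the 3 comparisons. Of 18 measured, ICC-DMP had 1 higher and 2 lower against tissue, ICC-MY had 3 lower against tissue, and 2 were higher in ICC-DMP than in ICC-MY. Their median difference was 0.08, −0.17 and 0.20, beside −0.04, −0.02 and −0.02 over all genes. With the replicate block ICC-DMP had 2 higher and 4 lower against tissue, adding Cnst, Cdh1 (−1.78, adjusted p = 0.0425) and Dbn1 (−0.61, adjusted p = 0.0469). ICC-MY then had 1 higher and 3 lower, adding Cav2 (0.85, adjusted p = 0.0246). Between the ICC groups the block gave 4 higher in ICC-DMP, adding Dlg1 (0.68, adjusted p = 0.0305) and Cav2 (0.82, adjusted p = 0.0173). Over all 18193 genes the block called 2853, 3537 and 2617, more than without it. Cdh1, also on the epithelial marker list, read 2.79 and 5.27 in tissue and 2.16 to 2.63 in the ICC arrays. Most of its difference came from tissue replicate 2. For ICC-DMP against tissue, the second Dbn1 probe set, 1451734_a_at, gave 0.02 (adjusted p = 0.982). Cnst, consortin, which carries connexins from the trans-Golgi network to the membrane, read 8.77, 9.02 and 9.27 in ICC-DMP, 6.21, 6.77 and 7.07 in ICC-MY, and 7.77 and 8.63 in tissue. ICC-DMP was above all other arrays and ICC-MY below them. The difference between ICC-DMP and ICC-MY was 2.34 (SE 0.29, adjusted p = 0.00139), and ICC-MY was lower than tissue (difference −1.52, adjusted p = 0.0160). The latter was −1.09 without tissue replicate 2, where only the other tissue array was left. With the block ICC-DMP was higher than tissue by 0.66 (adjusted p = 0.0478), against an adjusted p of 0.178 without it.

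Cav3, a caveolin of muscle, read 6.18, 6.59 and 6.23 in ICC-DMP, 4.25, 3.599 and 3.80 in ICC-MY, and 7.27 and 7.39 in tissue. No groups overlapped. ICC-DMP was higher than ICC-MY by 2.45 (SE 0.20, adjusted p = 0.000157) and lower than tissue (difference −0.997, adjusted p = 0.0239), and ICC-MY was lower than tissue (difference −3.45, adjusted p = 3.05e-05). The difference of ICC-DMP from tissue did not pass without either tissue array (adjusted p = 0.0744 and 0.101) or without ICC-DMP replicate 1 or 3 (0.0941 and 0.0841). Smooth muscle markers lay in the same order of groups, and their part in the Cav3 values was not tested. Cdh2, N-cadherin, an adhesion protein, was lower than in tissue in ICC-DMP (difference −3.89, adjusted p = 1.38e-05) and in ICC-MY (difference −3.86, adjusted p = 1.35e-05). Cav2, a caveolin named outside the rule after its value was seen, was higher in ICC-DMP than in tissue by 1.57 (adjusted p = 0.0388). It was higher by 1.04 without tissue replicate 1, where only the other tissue array was left. It did not pass without any 1 of the ICC-DMP arrays (adjusted p = 0.0686 to 0.134) or without ICC-MY replicate 3 (0.0627). Tjp1, the scaffold ZO-1 that binds the tail of Cx43, also named outside the rule, had differences of −0.08, −0.40 and 0.32 and did not pass.

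Kinases that can phosphorylate connexins were counted beside the same shares of all genes. Of 14 measured, ICC-DMP had 3 lower against tissue, ICC-MY had 1 higher and 3 lower against tissue, and 1 was higher and 2 were lower in ICC-DMP than in ICC-MY. Their median difference was −0.03, −0.25 and −0.03, beside −0.04, −0.02 and −0.02 over all genes. With the replicate block ICC-MY had 2 higher and 4 lower against tissue, adding Akt1 (0.99, adjusted p = 0.0382) and Prkcz. Between the ICC groups the block gave 2 higher and 2 lower, adding Src (0.49, adjusted p = 0.0455). The second Src probe set, 1423240_at, went the other way without the block (−0.33, adjusted p = 0.517). The block also called more of all 18193 genes, 3537 in ICC-MY against tissue and 2617 between the ICC groups. Prkcq, protein kinase C theta, which is also on the ICC marker list, read 7.12, 7.18 and 6.29 in ICC-DMP, 10.61, 12.04 and 11.49 in ICC-MY, and 6.42 and 7.43 in tissue. ICC-MY stood above all other arrays, and the other groups overlapped. The difference of ICC-MY from tissue was 4.46 (SE 0.47, adjusted p = 0.000446), and that of ICC-DMP from ICC-MY was −4.52 (SE 0.42, adjusted p = 0.000316).

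Prkca, protein kinase C alpha, went the other way between the ICC groups. It read 8.47, 8.08 and 8.11 in ICC-DMP, 6.66, 6.69 and 6.30 in ICC-MY, and 7.72 and 8.27 in tissue, with ICC-MY below all other arrays. It was higher in ICC-DMP than in ICC-MY by 1.67 (SE 0.20, adjusted p = 0.00120) and lower in ICC-MY than in tissue (difference −1.45, adjusted p = 0.00335). Prkcb, protein kinase C beta, was lower than in tissue in ICC-DMP (difference −2.75, adjusted p = 0.000108) and in ICC-MY (difference −3.27, adjusted p = 3.88e-05).

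Csnk1e, casein kinase 1 epsilon, was lower in ICC-DMP than in ICC-MY (difference −1.41, SE 0.33, adjusted p = 0.0357). That call was lost when any ICC array other than ICC-MY replicate 1 was left out (adjusted p = 0.0878 to 0.134), and with arrays centred on their medians (adjusted p = 0.0578). In the fit of every probe set, 1417175_at of Csnk1e gave −1.19 (adjusted p = 0.00237) and 1435373_at gave −0.38 (adjusted p = 0.365). Cdk1, the kinase of mitosis, was lower than in tissue in ICC-DMP (difference −1.41, adjusted p = 0.0217) and in ICC-MY (difference −1.22, adjusted p = 0.0328). Leaving out either tissue array ended both Cdk1 calls (adjusted p = 0.0845 to 0.126), and leaving out ICC-DMP replicate 2 or 3 ended the first (0.0533 and 0.0628). The second was also lost without ICC-DMP replicate 1 or 2 (0.0539 and 0.0583) or ICC-MY replicate 3 (0.0518). Prkcz, protein kinase C zeta, named outside the rule, was lower in ICC-DMP than in tissue (difference −1.45, adjusted p = 0.0154). Its call was lost without either tissue array (adjusted p = 0.0552 and 0.0734) and without ICC-DMP replicate 2 or 3 (0.0594 and 0.0569). With the block it was lower also in ICC-MY (difference −0.86, adjusted p = 0.0444). For ICC-DMP against tissue, the Prkcz probe sets 1449692_at and 1454902_at gave −0.34 (adjusted p = 0.639) and −0.29 (adjusted p = 0.633). The mean of its probe sets gave −0.69 and did not pass (adjusted p = 0.132).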

How the data were processed

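The authors deposited log2 expression values for 45101 probe sets on 8 arrays. The submitters' processing notes name RMA and limma but neither a version nor the step each did. Per the labels' protocols, about 50 ng of RNA went through 2 rounds of amplification, which can favour 3′ ends. The values were used as they are, after removal of 64 control probe sets. Of the other 45037, 34945 named 1 gene in the platform annotation, 932 several, and 9160 were not listed. Where several named a gene alone, the one of highest overall mean stood for it (18193 genes), and all probe sets of the connexin genes were examined in a second fit over every probe set.

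Differences were fitted with limma 3.58.1 in R 4.3.3 (lmFit, contrasts.fit, eBayes), with 3 groups in 1 fit, and 2-sided p-values were adjusted by Benjamini-Hochberg over all genes or all probe sets, with 0.05 as threshold. Errors are SE of the fit or SD over arrays, and the number of arrays, above all the 2 of tissue, limits the precision. The scripts were tested on simulated data. The members, lists and tests were chosen with earlier results of these data known. Named genes were the members, listed genes that passed between the ICC groups or in both comparisons with tissue (at most 6 a list), and the 3 genes nearest in pattern; genes named outside this rule are marked. Cell type marker lists, also pericyte, glia, macrophage and fibroblast ones, were counted in full but few of their genes are named.

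Same-numbered arrays tended to deviate together. The correlation of deviations from the group means was 0.29, 0.50 and 0.39 between ICC-DMP and ICC-MY. It was 0.16 and 0.32 between ICC-DMP and tissue, and 0.58 and 0.61 between ICC-MY and tissue. Pairs of different number gave −0.34 to −0.02, −0.32 to 0.14 and −0.61 to 0.17 in the same order. With 2 tissue arrays the deviations of one mirror the other. ICC-MY replicate 1 and tissue replicate 1 were also the narrow-range arrays, and the part of their range in these correlations was not tested. The pairing comes from this check of the same values, since the labels give the numbers without saying what they share. Fits with the replicate number as a block are therefore given where they change a call. Other alternatives were quantile normalization, median centring, array weights, 2-group fits, the mean of a gene's probe sets, every probe set, a filter on dim probe sets, and leaving out arrays. Promoters came from RefSeq (GRCm38.p6).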

Additional observations from a re-analysis of the deposited data

Results flagged for a closer look

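The values below are of genes whose difference from tissue was unequal in ICC-DMP and ICC-MY, by limma's test of ICC-DMP minus ICC-MY adjusted over all genes or all probe sets. Listed genes were named for passing this test, so their number is no result, and 8.67% of all genes and 7.41% of all probe sets passed it. Among channel genes, Gja3 differed by 2.14 (SE 0.20, adjusted p = 0.000309) and Panx1 by 0.61 (SE 0.15, adjusted p = 0.0391). Among connexin partners, Cav3 differed by 2.45 (SE 0.20, adjusted p = 0.000157) and Cnst by 2.34 (SE 0.29, adjusted p = 0.00139). Among kinases, Prkcq differed by −4.52 (SE 0.42, adjusted p = 0.000316), Csnk1e by −1.41 (SE 0.33, adjusted p = 0.0357) and Prkca by 1.67 (SE 0.20, adjusted p = 0.00120). The Gja1 probe set 1415801_at differed by −2.49 (SE 0.37, adjusted p = 0.00453), with all 3 ICC-MY arrays above all 3 ICC-DMP arrays.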

How the results depend on the processing

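Over 17 alternatives, the 6 connexin genes gave 297 differences, of which 281 kept their side of the threshold and 16 newly passed, with 0 called values reversed. The number that passed, 0 in each comparison on the deposited values, was 2, 2 and 1 after quantile normalization (ICC-DMP against tissue, ICC-MY against tissue, ICC-DMP against ICC-MY). With the replicate block it was 2, 1 and 1, where 2853, 3537 and 2617 of all genes passed. Centring arrays on their medians and averaging a gene's probe sets each gave 1 in both comparisons with tissue. Of all 18193 genes, 1875 and 2398 passed there with centring, and 2505 and 2802 with averaging. Testing every probe set gave 1 in ICC-DMP against tissue. Leaving out 1 ICC array gave 0 in each comparison, and leaving out either tissue array gave 0 between the ICC groups. Without tissue replicate 2, where only the other tissue array was left, Gja4 differed from tissue by −1.01 in ICC-DMP and −0.94 in ICC-MY. Without tissue replicate 1 these were −0.43 and −0.35. Among the other listed genes 44 values no longer passed, 45 newly passed and 1 reversed: Gjd2 in ICC-MY against tissue was −1.03 (adjusted p = 0.000867) when its probe sets were averaged, since its second probe set differs from the first. The count of all genes that passed was 2009, 2516 and 1577. It moved by over 1.5 times to 3129, 3911 and 2557 after quantile normalization. Testing every probe set gave 5657, 5691 and 3335 of 45037 probe sets (12.6%, 12.6% and 7.41%, against 11.0%, 13.8% and 8.67% of genes). Between the ICC groups it was 2617 with the block, 2646 with array weights, 2630 without the 2 narrow-range arrays, 991 without ICC-DMP replicate 1 and 996 without ICC-DMP replicate 2. Without those 2 arrays in turn, ICC-DMP against tissue gave 1264 and 1296, and a fit of only ICC-MY and tissue gave 1520. The share of calls that were higher between the ICC groups was 61.9%, and 50.1% after quantile normalization, 51.3% with array weights, 47.4% without ICC-MY replicate 1 and 46.7% when both narrow-range arrays were left out; the cause was not tested. Single probe sets under all settings were an alternative chosen after seeing the data. A filter on dim probe sets left 3 of the 6 members.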
